A study of Mus musculus with 2 samples.

Results

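The genes of 4 families of splicing factors were described in fetal mouse liver, together with the isoforms that each gene was assigned. The families were the SR proteins (Srsf genes), the proteins of the small nuclear ribonucleoproteins (Snrp genes a to g), the heterogeneous nuclear ribonucleoproteins (Hnrnp genes) and the subunits of splicing factor 3 (Sf3a and Sf3b genes). Members were the protein-coding genes whose symbol matched these names. They came to 51 of the 21474 protein-coding genes in the tables, of 43346 Ensembl genes in all: 11 SR, 11 Snrp, 20 hnRNP and 9 SF3 genes. Their 272 transcripts, of 103639, were classed by the annotation as protein coding (138), nonsense-mediated decay (28), retained intron (70) and processed transcript (35), and 1 had no match.

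Both libraries came from the liver of B6NCrl mouse embryos at day 16.5 of gestation, and no other stage, tissue or treatment was part of the design. Each was a biological replicate made from a pool of male and female embryos, 41 of them for replicate 2 and an unstated number for replicate 1, and both carried the same donor identifier. RNA longer than 200 nt was isolated and 10 ng was turned into each library with a kit for very small inputs. The libraries held 44477766 and 48820712 expected counts, of which the 51 genes took 0.856% and 0.776%. Levels are in TPM, an abundance divided by transcript length and scaled to a fixed total per library, and are given as replicate 1 and replicate 2 or as mean ± SD (n = 2). With 1 group there was nothing to test between conditions, and no p-value is given. The fetal liver also makes blood. All 6 hepatocyte markers and all 8 erythroid markers reached 1 TPM in each library, and none of 5 neuronal markers did. Skeletal muscle markers summed to 98.7 TPM in replicate 1 and 233 TPM in replicate 2, and their part in any replicate difference was not tested. In a bulk sample, fewer cells of a type and less RNA per cell cannot be told apart.

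The spliceosome removes introns from precursor RNA. Snrp proteins belong to its U1 and U2 particles, among others: a ring of Sm proteins wraps the small nuclear RNA of both, and a few further proteins are specific to one particle. SF3a and SF3b belong to the U2 particle and hold it at the branch point. SR proteins bind exons and mostly favour their inclusion, while many hnRNP proteins repress nearby splice sites. Genes of SR and hnRNP proteins are textbook cases of self-limiting expression: an alternative exon with an early stop codon, often called a poison exon, or an unspliced intron makes a transcript that yields no full protein. A stop codon far enough upstream of the last exon junction marks a transcript for nonsense-mediated decay (NMD), while a transcript that keeps an intron often stays in the nucleus.

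Stop codons of this kind could be read in the annotation. Of the 28 transcripts classed as NMD, 27 had a single annotated stop codon, and in all 27 it lay more than 50 nt upstream of the last exon junction. In 24 it fell in an internal exon, and in 11 the exon overlapped no coding exon of a protein-coding transcript of the same gene. The 4 stretches below are such poison exons, shown because they hold the early stop itself. They come from the members whose single NMD transcript of this kind had the highest share of its gene, and run from the first base of the exon to the stop, in capitals, in build GRCm38 (mm10).
Sf3b1-208: gcttctattctgctgctTGA
Srsf3-201: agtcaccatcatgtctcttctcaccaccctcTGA
Srsf11-206: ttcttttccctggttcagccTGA
Srsf4-203: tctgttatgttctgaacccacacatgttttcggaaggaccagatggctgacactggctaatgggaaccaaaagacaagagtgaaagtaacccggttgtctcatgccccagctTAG
The Sf3b1 stretch is chr1:55014905-55014924 on the minus strand, in a 56-nt exon inside intron 4 of 24 of Sf3b1-201, the leading coding transcript. The Srsf3 stretch is chr17:29039454-29039487 on the plus strand, in a 456-nt exon inside intron 3 of 5 of Srsf3-202. The Srsf11 stretch is chr3:158024209-158024231 on the minus strand, in a 109-nt exon inside intron 2 of 11 of Srsf11-202. The Srsf4 stretch is chr4:131884276-131884390 on the plus strand, in a 207-nt exon inside intron 1 of 5 of Srsf4-202. Not every NMD transcript had an early stop: Srsf2-204 and Hnrnpd-208 ended at the same stop codon as the leading coding transcript of their gene, and had an exon junction 113 and 137 nt downstream of it.

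Retained introns were seen from the other side, as an intact 5′ splice site inside an exon of the transcript. The 4 windows below each hold the last 10 exon bases and the first 20 intron bases, with the GT of the splice site in capitals. They were chosen, after the values were seen, from members whose retained-intron transcripts held a large share.
Srsf5-212: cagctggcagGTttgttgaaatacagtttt
Sf3b1-203: tttgcagatgGTaattctttcccacttttc
Srsf3-204: ctcggcgcagGTacttgagagagcaccttt
Hnrnpl-210: tcaggcaaaaGTgagtcagacaccacttcc
Srsf5-212 kept the whole 1229-nt intron 5 of 7 (window chr12:80947856-80947885, plus strand). Sf3b1-203 kept the whole 1813-nt intron 4 (window chr1:55016356-55016385, minus strand), the same intron that holds the poison exon of Sf3b1-208. Likewise, Srsf3-204 kept the 2150-nt intron 3 that holds the Srsf3 poison exon (window chr17:29038615-29038644, plus strand). It held a mean of only 4.77% of its gene. Srsf3-205, the retained-intron form with a mean of 50.6%, uses only part of that intron. Hnrnpl-210 kept the 118-nt intron 11 of 12 (window chr7:28821264-28821293, plus strand).

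Nearly all of the 51 genes were detected. At 1 TPM or more in both libraries stood 50 of them, against 52.2% of all protein-coding genes, and 48 were at 10 TPM or more. At 100 TPM or more were 14 members, 3 SR, 4 Snrp, 6 hnRNP and 1 SF3 gene, against 3.98% of protein-coding genes. The exception was Srsf12, a relative of Srsf10 described as an antagonist of other SR proteins, at 0.08 and 0.06 TPM from 9 and 8 expected counts. The median member stood at 63.6 ± 4.56 TPM, and the median protein-coding gene at or above 1 TPM at 10.9 ± 0.17 TPM. For comparison, cytosolic ribosomal protein genes had a median of 391.0 ± 37.1 TPM and Eif genes one of 48.4 ± 3.3 TPM. The Eif genes were taken by symbol, which is that of translation initiation factors but also covers genes with other roles, such as Eif4a3. The members together held 0.523 ± 0.0336% of all TPM.

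**Figure D1:**
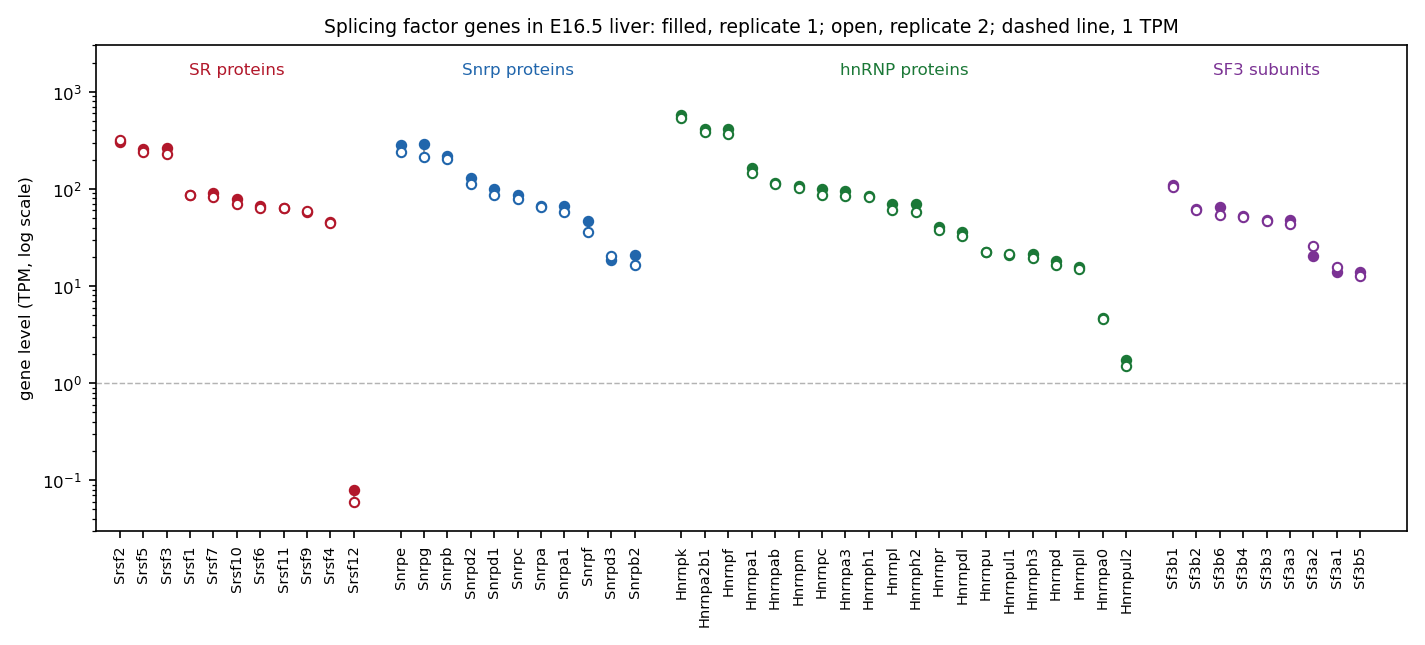
Gene level in TPM on a log axis for each of the 51 splicing factor genes, ordered by level within its family. Filled points are replicate 1, open points replicate 2 and the dashed line 1 TPM; the paired points lie close together, and Srsf12 is the only gene below the line, at 0.08 and 0.06 TPM.

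Among the SR genes, whose median was 74.9 ± 5.90 TPM, 3 stood well above the rest. Srsf2, which encodes the classical speckle protein SC35 (chr11:116849901-116853094), was at 305 and 315 TPM. Srsf5 (chr12:80945504-80950507) was at 261 and 239 TPM. Srsf3, the smallest SR protein and also an mRNA export adaptor (chr17:29032628-29043373), was at 261 and 228 TPM. The values of Srsf3 and Srsf5 overlapped, so their order cannot be given, and both libraries of Srsf2 lay above them. The next were Srsf1, the founding member of the family, at 87.2 and 87.2 TPM, and Srsf7 at 90.4 and 82.0 TPM. Srsf10, Srsf6, Srsf11, Srsf9 and Srsf4 followed, with means from 74.9 to 45.2 TPM. Srsf7 had 1 transcript in the tables, so no isoform share can be given for it.

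The Snrp genes had a median of 81.8 ± 5.44 TPM but covered a wide range. The 7 Sm ring proteins assemble in equal numbers around a small nuclear RNA that carries the ring. Their RNA levels were yet 15.4-fold apart in replicate 1 and 11.8-fold apart in replicate 2, from the highest gene to the lowest. Snrpe was at 284 and 240 TPM and Snrpg at 288 and 213 TPM, and the ranges of both overlapped. Snrpb, at 219 and 201 TPM, also overlapped Snrpg. Snrpd2 was at 128 and 111 TPM, and Snrpd1 at 99.5 and 87.2 TPM. At the lower end, Snrpf stood at 46.8 and 36.0 TPM and Snrpd3 at 18.7 and 20.4 TPM. In replicate 1, Snrpg had 3048 expected counts and an effective length, the length used for scaling, of 251 nt. Snrpd3 had 1813 counts and 2306 nt, so their gap was much smaller in counts than in TPM. The gene counts of Snrpd1, Snrpe, Snrpf and Snrpg were not whole in either library, and that of Snrpd3 was not in replicate 2, so part of each such level depends on how shared reads were divided. Of the proteins specific to U1, Snrpc was at 85.7 and 78.0 TPM and Snrpa at 66.5 and 65.1 TPM. Of those specific to U2, Snrpa1 was at 66.8 and 57.5 TPM and its binding partner Snrpb2 at 20.6 and 16.3 TPM. The ranges of Snrpa and Snrpa1 overlapped, and Snrpb2 was the lowest of the 4 in both libraries.

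The hnRNP genes had a median of 64.5 ± 7.67 TPM. Hnrnpk, which binds C-rich RNA (chr13:58391142-58403343), was the highest member of any family, at 574 and 539 TPM, rank 118 among protein-coding genes. Hnrnpa2b1, a repressor of exon inclusion, was at 414 and 387 TPM. Hnrnpf, which binds runs of G, was at 415 and 366 TPM, a range that takes in that of Hnrnpa2b1. Below these came Hnrnpa1 at 163 and 147 TPM, Hnrnpab at 116 and 113 TPM and Hnrnpm at 107 and 102 TPM. The low end held Hnrnpa0 at 4.73 and 4.54 TPM and Hnrnpul2 at 1.74 and 1.50 TPM, the 2 members of this family below 10 TPM. Counts were whole for Hnrnpa2b1 but not for Hnrnpk, Hnrnpf or Hnrnpa1. Over all families, 22 of the 51 genes had gene counts within 0.01 of a whole number in both libraries.

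The SF3 subunits had a median of 47.7 ± 1.09 TPM. Sf3b1, which clamps the branch point and its U2 pairing (chr1:54985169-55027481), was at 109 and 106 TPM. Of the other 5 Sf3b genes, Sf3b6, at 65.8 and 54.5 TPM, and Sf3b2, at 62.6 and 60.4 TPM, overlapped at the top, and Sf3b5 was lowest at 13.8 and 12.7 TPM. Phf5a, a further SF3b subunit whose symbol is outside the naming rule, was at 84.7 and 74.3 TPM. In SF3a, Sf3a3 was at 47.9 and 43.1 TPM, Sf3a2 at 20.5 and 26.0 TPM and Sf3a1 at 14.0 and 15.9 TPM. From the highest to the lowest gene, the 6 Sf3b genes spanned 7.90-fold and 8.33-fold and the 3 Sf3a genes 3.41-fold and 2.71-fold in the 2 libraries.

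The gene level of a splicing factor does not say how much of it can be translated. For each gene, the authors' percent of the gene's TPM that each transcript holds was summed over NMD and retained-intron transcripts, here called the nonproductive share. It could be read for 28 members, which reached 10 TPM in each library and had at least 1 such transcript in the tables. The other 20 members at that level had none, and 50.9% of protein-coding genes at that level had 1 or more. The median share over the 28 members was 24.0 ± 2.37%, and over the 2886 genes that met the same conditions it was 6.64 ± 0.233%. By family the medians were 33.1 ± 1.71% in 7 SR genes, 21.6 ± 0.474% in 7 Snrp genes, 19.4 ± 2.05% in 10 hnRNP genes and 3.94 ± 0.304% in 4 SF3 genes. Ribosomal protein genes had a median of 0.865 ± 0.0495% and Eif genes one of 8.72 ± 0.339%.

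A share of 20% or more in both libraries was held by 16 of the 28 members (57.1%), against 23.6% of the 2886 genes. Of the Eif genes 8 of 17 (47.1%) were at that share, and of the ribosomal protein genes 5 of 43 (11.6%). The members were 6 of 7 SR genes, 4 of 7 Snrp genes, 5 of 10 hnRNP genes and 1 of 4 SF3 genes. For NMD transcripts alone, 5 of 19 members with such a transcript were at 20% or more, against 15.0% of genes with one, and for retained introns alone 10 of 27 members were, against 17.5%. The median number of transcripts per gene in the tables was 4.00, both over all 51 members and over the 5670 protein-coding genes at 10 TPM or more. Those sets are wider than the 28 members and the 2886 genes compared above, for which this number was not compared. The libraries gave like shares: the median difference between them was 1.30 percentage points and the largest 8.55 points, in Hnrnph3. At the edge of the threshold, Hnrnpdl was just inside at 25.0% and 20.5%, and Hnrnpu just outside at 16.7% and 15.4%.

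**Figure D2:**
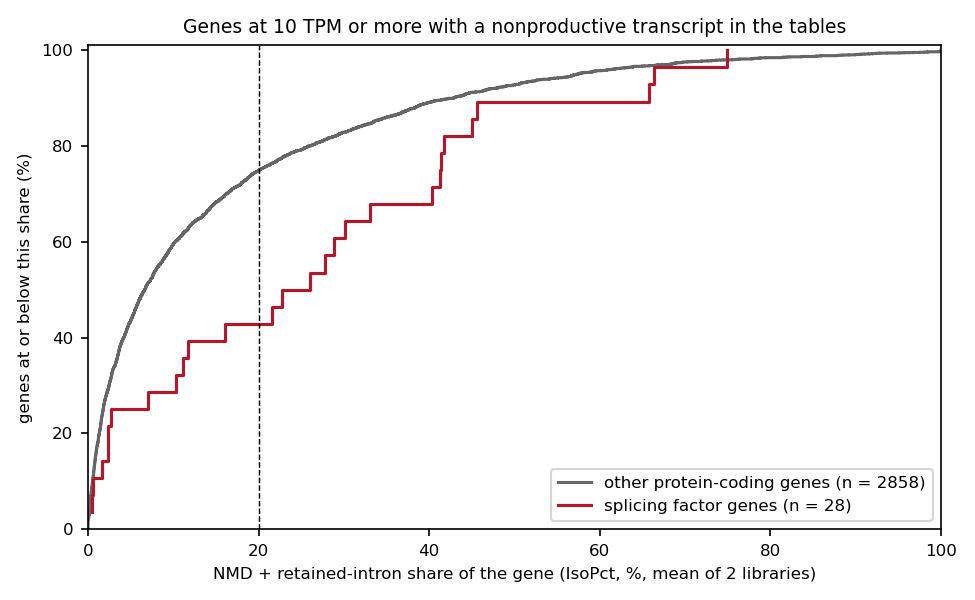
Cumulative percent of genes at or below each nonproductive share (percent of the gene's TPM, mean of both libraries), for the 28 splicing factor genes (red) and the other protein-coding genes that met the same conditions (grey). The dashed line marks 20%; the red curve lies to the right of the grey one there, with 16 of the 28 genes beyond it in both libraries.

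The share depends on its unit. A short transcript needs few reads to reach a given TPM, so the same share was also taken over expected counts, which weight long transcripts more. On that scale 9 of the 28 members (32.1%) were at 20% or more, against 14.6% of the same 2886 genes, and the median over members was 9.18%. Over all 2886 genes the median by counts was 3.82%. By family it was 26.0% in SR, 6.94% in Snrp, 11.5% in hnRNP and 1.04% in SF3 genes, so the order of Snrp and hnRNP genes turned. Of the Eif genes 3 of 17 (17.6%) were at 20% or more by counts. The 9 members at 20% or more on both scales were Srsf2, Srsf3, Srsf5, Srsf11, Snrpa1, Snrpb2, Hnrnpd, Hnrnpl and Sf3b1. The 7 that were below 20% by counts in at least 1 library were Srsf1, Srsf6, Snrpa, Snrpd3, Hnrnpdl, Hnrnph3 and Hnrnpk.

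**Figure D3:**
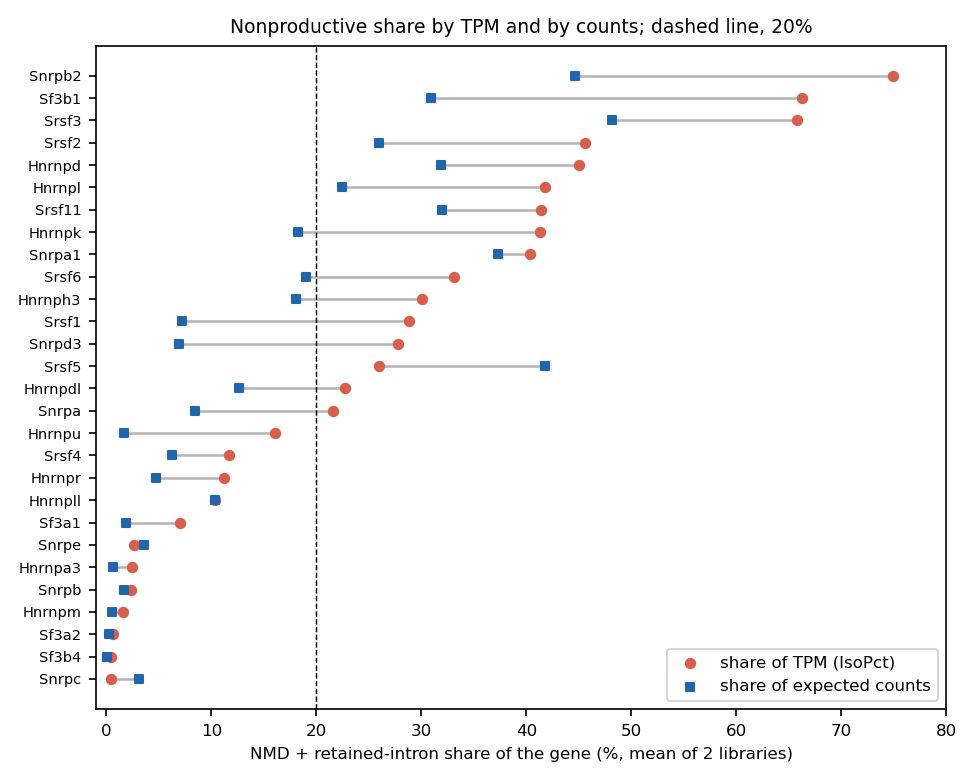
Nonproductive share of the 28 members as a percent of TPM (red circles) and as a percent of expected counts (blue squares), each the mean of both libraries, with the dashed line at 20%. Most squares lie to the left of their circle; Srsf5 is the clearest exception, with 41.8% by counts against 26.0% by TPM.

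Srsf3 had the highest share of the SR genes, 65.4% and 66.1%, and 47.9% and 48.5% by counts. Its leading transcript was Srsf3-205, a retained-intron form with 49.9% and 51.3% of the gene, ahead of the coding Srsf3-202 with 34.6% and 33.9%. The poison-exon transcript Srsf3-201 held 10.8% and 10.0%. All of the nonproductive share of Srsf3 lay on transcripts that use bases of intron 3, the intron of the poison exon shown above. The tables give Srsf3-205 a length of 910 nt and the later annotation 2110 nt, and Srsf3-201 has 1919 and 2594 nt, so TPM of these models rests on the shorter versions. Srsf2 held 45.6% and 45.7%, and 26.0% in each library by counts. Most of it was Srsf2-204, with 36.3% and 36.6%, whose last spliced junction lies 113 nt after the normal stop. The coding Srsf2-201 also has a junction after that stop, but closer to it. Srsf2 overlaps Mettl23 and Mfsd11 on the opposite strand, and no strand-specific step is named, so reads in the overlap cannot be told apart.

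Srsf11 held 40.7% and 42.0%, spread over many transcripts: 96.5% of its nonproductive share lay on 7 transcripts that use bases of the 3774-nt intron 2. Its poison-exon transcript Srsf11-206 held 7.89% and 8.78%, and the retained-intron Srsf11-208 11.9% and 11.0%. Srsf6 held 34.3% and 31.9%, nearly all of it the NMD transcript Srsf6-201 with 33.2% and 30.3%, which includes an exon inside intron 2 of 5. By counts Srsf6 stood at 19.7% and 18.3%, on the other side of the threshold. Srsf5 held 28.7% and 23.4%, almost all in Srsf5-212 and its intron 5. Alone among the 16 members at 20% or more, Srsf5 held more by counts, 44.6% and 38.9%. Srsf5-212 is 2720 nt long, and the leading transcript Srsf5-201 is 1527 nt. Srsf1 held 27.4% and 30.2% by TPM and 6.73% and 7.63% by counts. The largest part of it, Srsf1-203, has 0 bases outside the exons of coding transcripts, so no intron base sets it apart from them. Srsf4 was the SR gene below the threshold, at 10.8% and 12.6%, all of it on transcripts that use intron 1.

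Of the Snrp genes, Snrpb2 had the highest share of all members, 74.2% and 75.7%. Its leading transcript, the retained-intron Snrpb2-203 of 594 nt, held 69.3% and 67.8% from 298 and 249 expected counts. By counts the share of Snrpb2 was 43.8% and 45.4%, and 140 bases of Snrpb2-203 lay outside coding exons. Snrpa1, the partner of Snrpb2 in the U2 particle, held 37.7% and 43.0% by TPM and 34.7% and 39.9% by counts. Most of it was Snrpa1-201, an NMD transcript with 32.5% and 36.4%, whose stop falls in an exon that the leading coding transcript Snrpa1-206 also uses. Snrpd3 held 26.4% and 29.3%, and Snrpa 22.0% and 21.3%, in each case from 1 short retained-intron transcript. By counts these shares were 6.94 ± 0.658% in Snrpd3 and 8.40 ± 0.215% in Snrpa. The Sm genes Snrpb and Snrpe, with means of 2.33% and 2.66%, and the U1 gene Snrpc, with 0.42%, were almost wholly coding by this measure.

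In the hnRNP family, Hnrnpd, which binds AU-rich elements, held 46.7% and 43.3% by TPM and 36.0% and 27.8% by counts. Its leading transcript was the NMD form Hnrnpd-208, with 29.8% and 24.5%. Of its nonproductive share, 98.1% lay on 4 transcripts that use bases of intron 7 of 7. That intron lies after the stop codon of the coding form. Hnrnpl, which binds CA repeats, held 41.5% and 42.0% by TPM and 22.4% in each library by counts. Its retained-intron Hnrnpl-210 led in replicate 1 with 32.3% against 27.5% for the coding Hnrnpl-201. In replicate 2 the coding transcript led, with 30.1% against 28.8%, so which of the forms leads was not settled by these libraries. Hnrnpk held 39.2% and 43.4% by TPM but 17.2% and 19.2% by counts. Hnrnpk-217, which keeps the 78-nt intron 13 of 15, held 29.98% and 28.56%, and only those 78 of its 874 bases lie outside coding exons. Of the nonproductive share of Hnrnpk, 70.9% was counted for intron 13, all of it from Hnrnpk-217. The same transcript, with Hnrnpk-209, gave the 77.8% counted for intron 15, so these values overlap. The bases of Hnrnpk-217 in intron 15 belong to exons of other coding transcripts. Hnrnph3 held 34.4% and 25.8% by TPM and 23.2% and 13.0% by counts. Hnrnpdl held 25.0% and 20.5% by TPM and 14.1% and 11.1% by counts. Low shares by TPM were found in Hnrnpa3 (2.40%) and Hnrnpm (1.62%).

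Sf3b1 stood apart from the other 3 SF3 genes with a nonproductive transcript. It held 66.0% and 66.7% by TPM and 29.9% and 31.9% by counts, with gene counts that were whole. Its poison-exon transcript Sf3b1-208 held 41.3% and 38.3%, ahead of the coding Sf3b1-201 with 33.9% and 32.8%. Sf3b1-208 is a partial model of 600 nt with 951 and 923 expected counts, whereas Sf3b1-201 is 6195 nt long with 9497 and 9622. By counts Sf3b1-208 was 7.02% and 6.52% of the gene, and Sf3b1-203, the form that keeps intron 4, was 21.2% and 23.3%. On transcripts using bases of intron 4 lay 99.0% of the nonproductive share. Sf3a1 was at 6.75% and 7.34%, Sf3a2 at 0.31% and 0.96%, and Sf3b4 at 0.69% and 0.26%.

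**Figure D4:**
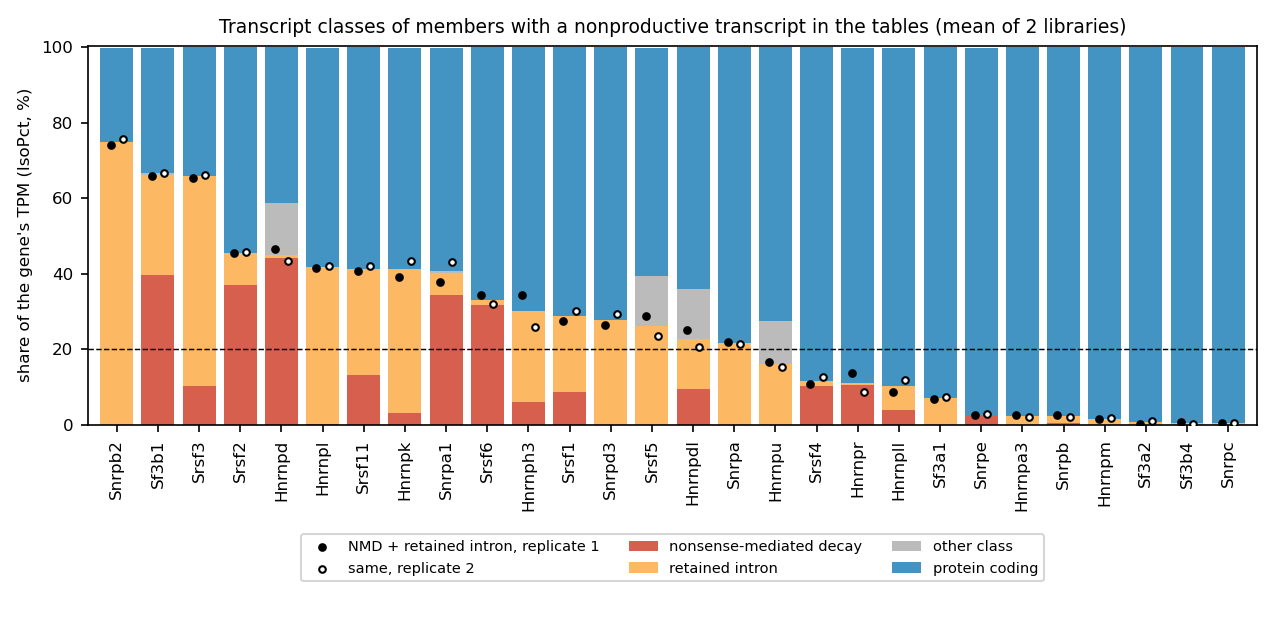
Transcript classes of the 28 members as percent of the gene's TPM (bars, mean of both libraries), with the summed nonproductive share of replicate 1 (filled points) and replicate 2 (open points) and the dashed line at 20%. Snrpb2, Sf3b1 and Srsf3 stand highest, at 74.9%, 66.3% and 65.8%, and the points of the 2 libraries lie near each other.

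The 16 members at 20% or more differed in how far their nonproductive share lay on 1 intron. In Srsf3, Srsf6 and Snrpd3, and in Srsf4 below the threshold, 100% of the share lay on transcripts that use bases of a single intron of the leading coding transcript. The value was 99.8% in Srsf5 (intron 5), 99.7% in Snrpa (intron 5), 99.0% in Sf3b1 (intron 4), 98.1% in Hnrnpd (intron 7), 96.5% in Srsf11 (intron 2) and 91.5% in Snrpb2 (intron 1). In Hnrnpd, 60.3% also lay on a transcript that uses intron 1. The largest value for any intron was lower in the other members: 77.8% in Hnrnpk, 73.2% in Hnrnpl, 57.9% in Hnrnpdl and 47.2% in Hnrnph3. It was 20.1% in Srsf2, 14.0% in Snrpa1 and 11.5% in Srsf1, so most of their share was on transcripts not counted for any intron. In Srsf3, Sf3b1, Srsf11, Srsf6 (intron 2) and Hnrnpl (intron 6), the same intron held the stop exon of an NMD form and bases of a retained-intron form. The retained-intron form of Srsf6 held only 1.30% of its gene, and the NMD form of Hnrnpl 0.12%. A gene with a single such transcript in the tables, like Snrpd3, gives 100% by construction.

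Leading transcripts were compared in the 39 members at 10 TPM or more with at least 2 transcripts. The leading transcript was not protein coding in 6 of them, against 8.07% of genes that met the same conditions. Besides Srsf3, Snrpb2, Hnrnpl, Hnrnpd and Sf3b1, this was Hnrnph1, whose processed transcript Hnrnph1-212 held 32.6% and 31.4% against 29.7% and 30.9% for the coding Hnrnph1-201. Ranked by counts, 28 of the 39 kept the same leading transcript, and the leader was not coding in Srsf5 only. The matching share over all genes was not taken by counts, so the 8.07% holds for ranking by TPM alone. The leader differed between the libraries in 4 members, Hnrnpl, Hnrnph3, Hnrnpab and Hnrnpa3, all hnRNP genes, against 5.15% of genes. In 17 members the leader held under 50% of the gene on average, against 21.0% of genes.

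Taking only protein-coding transcripts changed the order of the members. Srsf3 went from 245 ± 23.4 TPM for the gene to 83.8 ± 9.27 TPM for its coding transcripts, and from rank 8 to rank 17 of the 51. Sf3b1 went from 108 ± 2.50 to 35.9 ± 1.63 TPM, and from rank 13 to rank 36. Its coding level thus lay within the range of the other SF3b genes, whose spread from highest to lowest was 4.77-fold and 4.76-fold on that scale. The 4 particle-specific Snrp proteins moved apart instead: from 4.15-fold and 4.79-fold by gene level to 16.0-fold and 19.6-fold by coding level, with Snrpb2 at 4.64 ± 0.976 TPM. Hnrnpk had 327 ± 31.2 TPM of coding transcripts and Srsf2 169 ± 3.61 TPM. Hnrnpa2b1 and Hnrnpf, with mean coding levels of 401 and 391 TPM, lay above Hnrnpk on that scale.

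**Figure D5:**
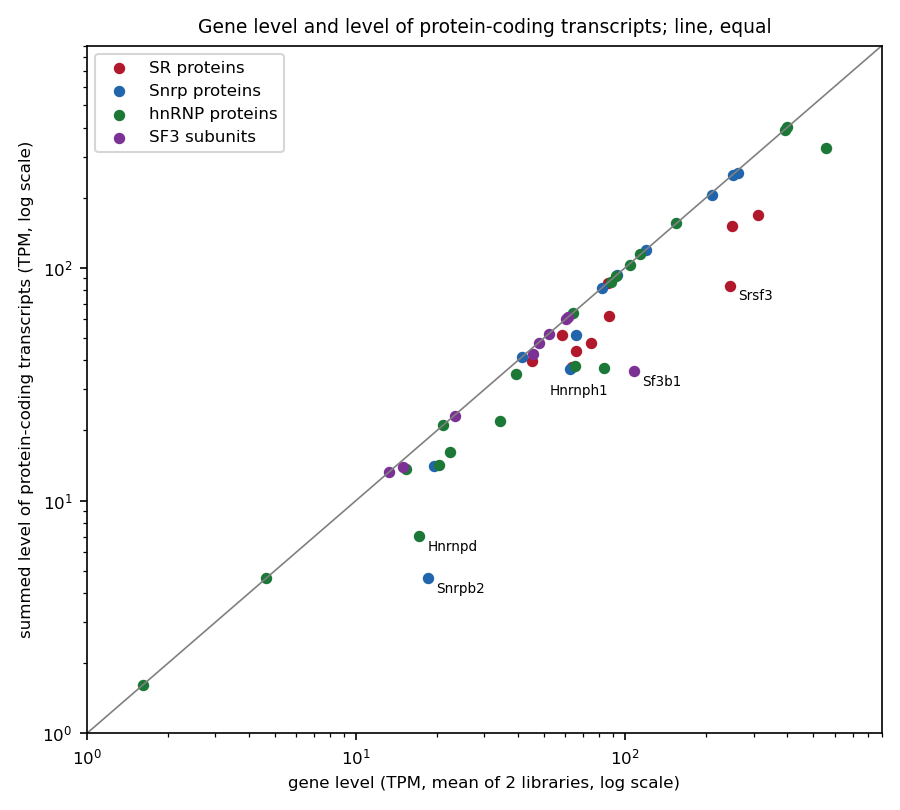
Gene level against the summed level of protein-coding transcripts (TPM, means of both libraries, log axes) for the 50 members above 1 TPM, coloured by family, with the line of equality. Points on the line have all or nearly all of their level on coding transcripts; the 5 labelled genes, Srsf3, Sf3b1, Hnrnph1, Hnrnpd and Snrpb2, have less than 50% of their level on coding transcripts.

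The replicates were compared by the log2 ratio of replicate 2 to replicate 1, on log2(TPM + 1) values centred on the median of all genes at a mean of 100 counts or more. None of the 50 members at that depth reached 0.5 in either direction, against 1.39% of protein-coding genes at 0.5 or more and 0.339% at -0.5 or less. Within that range the members leaned one way: 45 of 50 were below 0, against 49.6% of genes, with a median of -0.13. The lowest were Snrpg at -0.46, Snrpf at -0.39 and Snrpb2 at -0.34, and the highest Sf3a2 at 0.31. This is 1 library against 1, so it describes these pools and not a condition.

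The members work with many other proteins, and 178 genes of the pathway were read from 11 further lists. Of these, 159 (89.3%) reached 1 TPM in each library. The lists for SR-related proteins (10 of 10), partners of U1 and U2 (16 of 16), the tri-snRNP (28 of 28), the LSm ring (7 of 7), snRNP assembly (16 of 16) and the minor spliceosome (10 of 10) were detected in full. Their medians ran from 12.6 ± 1.09 TPM for the minor spliceosome to 70.0 ± 5.19 TPM for the LSm ring. The 22 other hnRNP-like proteins were also all detected, led by Ewsr1 at 211 and 202 TPM, and so were the 10 RBM splicing factors, led by Rbm39 at 207 and 201 TPM. Kinases that phosphorylate SR proteins, and their nuclear carriers, were detected for 9 of 10 genes. Clk1 was the highest of them at 74.1 and 80.8 TPM, and Srpk3, known from muscle, had the lowest mean, at 0.93 and 2.53 TPM. Its range overlapped that of Srpk2, at 2.22 and 2.37 TPM.

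Splicing regulators listed as tissue-restricted were mostly low: their median was 0.205 ± 0.106 TPM, and 11 of 29 reached 1 TPM in each library. The data hold no other tissue in which to check that label. The highest on the list were Rbm38, a regulator of splicing in maturing red cells, at 246 and 305 TPM, Mbnl1 at 77.2 and 75.8 TPM and Celf1 at 41.4 and 42.0 TPM. The machinery that would act on the NMD transcripts was present throughout, with all 20 genes of NMD and the exon junction complex at 1 TPM or more. Eif4a3, the core of the exon junction complex, was highest at 129 and 121 TPM. The surveillance factors themselves were lower: Upf1, the central helicase, was at 4.73 and 4.77 TPM, Upf2 at 3.47 and 3.60 TPM, Upf3a at 11.4 and 12.9 TPM and Upf3b at 8.52 and 7.72 TPM. The kinase Smg1 was at 4.40 and 3.97 TPM, the endonuclease Smg6 at 4.51 and 4.82 TPM, and Smg5, which helps recruit decay enzymes, at 24.7 and 27.2 TPM. Smg8 and Smg9, partners of Smg1, had means of 6.05 ± 0.318 and 11.9 ± 0.806 TPM. These levels do not measure how fast a transcript decays.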

How the data were processed

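Total RNA of 2 E16.5 liver pools was sequenced. Per the file headers and the deposited text, the authors quantified genes and transcripts on mm10 with GENCODE release M4, and no program version is given in the sources used here. The deposited expected counts are estimates, in which a read fitting several transcripts is split. The deposited TPM values are scaled over all entries of a table, spike-ins included. The deposited percent values (IsoPct) state how much of a gene's TPM a transcript holds. The deposited interval bounds and FPKM entered no result.

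Symbols, classes and coordinates came from GENCODE release M21 (GRCm38); 42462 of 43346 Ensembl IDs (98.0%) matched without their version, and 242 of the 272 member transcripts had the same length in both. Sequences came from M21 transcripts. No design for a comparison exists, so no test was made. The code for the replicate ratio and for the share was run on simulated data. For the share these data held no sampled reads, so only the summing was checked and not how reads were assigned to transcripts. Reads carried no molecular identifiers. An opposite-strand gene overlaps an exon of 18 members and a same-strand gene of 5. All members may be named. Transcripts named are the leading one of a member and, for members at 20% or more, the highest NMD and retained-intron form; other names were chosen after their values were seen. Of each further list the 3 highest and the lowest were eligible, and the UPF and SMG genes, of which 1 is not reported here. The members and lists were chosen with earlier results of these data known. Alternatives were TMM (edgeR 4.0.16) and DESeq2 1.42.0 size factors in R 4.3.3, other thresholds and pseudocounts, posterior mean TPM, shares of counts and leaving out each library. Python 3.11.15 with pandas 2.3.3 was used.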

Additional observations from a re-analysis of the deposited data

How the results depend on the processing

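Levels depend on length scaling. On TMM-scaled counts (CPM), which are not divided by length, the family medians were 177 for SR, 63.9 for Snrp, 127 for hnRNP and 73.2 for SF3 genes, a different order from that by TPM. With TPM over Ensembl genes only, the SF3 median was 49.9. The median nonproductive share was 9.18% over counts, 2.67% for NMD alone and 27.9% with processed transcripts added. Over counts, 9 members reached 20% and 1 was led by a noncoding transcript. At a threshold of 30%, 10 of the 28 members reached it, at 10% 18, and among members at 50 TPM or more 11 reached 20%. Neither these other thresholds nor noncoding leaders by counts were read over all genes, so these counts have no background share. Over counts 24 of the 28 shares were lower and 3 higher. Without replicate 1 or replicate 2, the median member lay between 60.4 and 66.8 TPM, SR genes between 70.7 and 79.1, Snrp between 78.0 and 85.7, hnRNP between 59.0 and 69.9 and SF3 between 46.9 and 48.5. The median share lay between 22.3% and 25.7%, and 5 to 6 members were led by a noncoding transcript. The detected members stayed at 50 and those at 20% or more at 16. No member passed 0.5 in log2 ratio under any of 9 settings, and 43 to 46 members were below 0, with medians from -0.15 to -0.11. No paired analysis was possible because the series has 1 group. Transcript models are often partial, shared reads were divided by a model, and 29 of the 51 genes had counts that were not whole. With 2 libraries, the SD itself is imprecise, and intervals for counting error would not cover these limits.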

Other observations

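Some partners of the splicing factors had nonproductive shares in the range of the members. Of the 178 further pathway genes, 74 were at 10 TPM or more with an NMD or retained-intron transcript in the tables. A share of 20% or more in both libraries was held by 25 of them (33.8%, against 23.6% of protein-coding genes that met the same conditions), and by 18 over expected counts, against 14.6% of those genes. The median share was 12.4% in replicate 1 and 12.0% in replicate 2, and 6.64 ± 0.233% over all 2886 such protein-coding genes.

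Rbm39, a U2AF-like splicing factor, was among the highest in level and held 68.5% and 65.0%. Rbm5 held 59.2% and 61.0%, and Rbm25 41.4% and 47.0%. The SR protein kinases Clk1 and Clk4 held 57.0% and 56.6%, and 48.0% and 46.8%. Tardbp, which encodes the RNA-binding protein TDP-43, held 44.0% and 42.7%. Smg5, a factor of the NMD pathway itself, held 35.8% in each library. Lower shares were found in Tra2b, with 9.40% and 8.64%, and Srrm1, with 14.2% and 13.7%. Shares of expected counts were not read gene by gene here, so how far each value rests on short transcript models was not tested.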
